A study of Mus musculus with 6 samples.

Results

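The class II genes of the major histocompatibility complex were examined in cultured mouse dendritic cells with and without DB2313. The set held 10 genes of 54532 in the count table, taken by symbol: H2-Aa, H2-Ab1, H2-Eb1, H2-DMa, H2-DMb1, H2-DMb2, H2-Oa, H2-Ob, Cd74 and Ciita. RNA-seq had been run on 3 libraries labelled as control and 3 labelled as treated with DB2313, a small molecule that the study used to inhibit Spi1 (PU.1), an ETS-family transcription factor of myeloid cells. All 6 were labelled as dendritic cells kept in 1640 medium with serum and antibiotics, and the labels gave no strain, dose, duration or number of animals. The methods of the study name macrophages or CD8 T cells as the source of RNA, and the label is used here. The columns of the treated libraries were headed SPI1 and not DB2313, so each direction below depends on reading them as the DB2313 libraries. The labels did not say that the 3 libraries of a group came from separate cultures or animals, and the p-values measure the spread between libraries, which may be technical.

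Class II molecules carry peptides from the endosomal pathway to the cell surface, where CD4 T cells read them. H2-Aa with H2-Ab1, and H2-Eb1 with an E alpha chain, form the peptide-binding pairs. The invariant chain, encoded by Cd74, fills the groove during transport and is then cut down by proteases. H2-DM, made of H2-DMa and a chain from H2-DMb1 or H2-DMb2, exchanges the last invariant chain fragment for peptide, and H2-O, made of H2-Oa and H2-Ob, restrains H2-DM. Ciita is the main coactivator of class II transcription, and the genes of the set need not all depend on it to the same degree. It has no DNA contact of its own and is held at class II promoters by factors on the X box, such as the RFX complex, and on the Y box, such as NF-Y. Dendritic cells are the cells best known for class II presentation to naive T cells.

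The promoter letters through which this control is known to act are shown first, for the genes of the set with a matched promoter. RefSeq promoters (GRCm38.p6, 250 bases before to 50 bases after each start) were matched for 7 of the 10 genes with 8 entries, and Cd74, Ciita and H2-Ab1 were not matched. The sets of letters were searched on both strands. CCAAT, the core of the Y box, was in 7 of the 8 entries and in 37.4% of all 32851 promoters, and in all 7 it stood as ATTGG on the strand of the gene (22.1% of all promoters). ACNGATG, letters found in X boxes, was in 5 of the 8 entries and in 9.85% of all promoters. GAGGAA, a PU.1 core, was in 1 of the 8, that of H2-DMb1, and in 28.3% of all promoters. Each line gives 75 bases around ATTGG, 5′ to 3′ on the strand of the gene, with ATTGG in capitals and with ACNGATG in capitals where it precedes ATTGG in the window.
H2-Eb1, plus strand, chr17:34305753-34305827: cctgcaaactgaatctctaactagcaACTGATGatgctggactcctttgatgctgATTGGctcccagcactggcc
H2-DMb1, plus strand, chr17:34153075-34153149: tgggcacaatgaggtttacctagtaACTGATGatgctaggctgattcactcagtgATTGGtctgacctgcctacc
H2-DMb2, plus strand, chr17:34145104-34145178: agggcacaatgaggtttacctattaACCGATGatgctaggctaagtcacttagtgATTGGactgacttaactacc
H2-Aa, minus strand, chr17:34287852-34287926: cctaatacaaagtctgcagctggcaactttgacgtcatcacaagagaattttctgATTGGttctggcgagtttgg
H2-Ob, plus strand, chr17:34238793-34238867: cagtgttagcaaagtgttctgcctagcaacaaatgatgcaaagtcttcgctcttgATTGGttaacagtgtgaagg
H2-Oa, plus strand, chr17:34092281-34092355: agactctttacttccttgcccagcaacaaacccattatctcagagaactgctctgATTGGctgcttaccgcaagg

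In H2-Eb1, H2-DMb1 and H2-DMb2, ACNGATG ended 22, 23 and 23 bases before ATTGG. Such a pair, with 10 to 30 bases between the motifs, was in 27 of all 32851 promoters (0.0822%), and this spacing was set after the sequences had been seen. H2-Aa, H2-Oa and H2-Ob had ATTGG 48, 43 and 57 bases before the start without ACNGATG at that spacing. Both H2-DMa entries lay upstream of the start that the count table gave for that gene, and the 1 with ATTGG had it 198 bases before its own start. The H2-DMb2 entry (34144999 to 34145298) lay within the gene as deposited, downstream of its start at 34143307.

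The libraries held 16146743 to 19764677 counts, and 14174 genes had enough counts to be tested. In pairwise comparison, control libraries differed less (chi-square per degree of freedom 4.77 to 5.28) than DB2313 libraries (7.43 to 17.7), and DB2313 replicates 1 and 3 stood farthest apart. The label was checked against marker genes. Of the dendritic cell markers, Itgax (CD11c) stood at 172 CPM (the count of a gene relative to the TMM-scaled library size) and Zbtb46 at 85.00 CPM in control, whereas Cd209a had at most 4 counts in any library. Of the 7 dendritic cell markers tested, 1 fell and 1 rose with DB2313. Itgax fell to 116 CPM (log2 fold change -0.58, edgeR adjusted p 3.2e-04), and Clec10a, a lectin receptor, rose from 19.9 to 57.7 CPM (1.53, 1.2e-07). Maturation markers differed widely in level, with Ccr7 at 1535 CPM and Ccl22 at 3912 CPM in control. Ccl22 had 46994 to 65067 counts per library, whereas Cd40 had 403 to 541 and Il12b 223 to 525. Markers of other cells were also present. The summed CPM of 10 neutrophil genes was 4421 to 4973 in control and 4487 to 5896 with DB2313, with 3 of the 10 called higher. That of 11 macrophage genes was 9884 to 11278 in control and 8909.5 to 9789 with DB2313, with 1 called higher and 6 lower. The macrophage sum came mostly from Lyz2, at 129225 to 155404 counts per library. For 6 mast cell and basophil genes the sum was 1261.5 to 1332 CPM in control and 1255 to 1502 CPM with DB2313, with 1 called higher. The most abundant of them, Mcpt8, had 9507 to 13435 counts per library. For 6 T cell genes it was 166 to 193 CPM in control and 164 to 249 CPM with DB2313, and none was called. Among all tested genes, 4.66% were called higher and 5.94% lower. B cells also make class II, and their defining gene Ms4a1 had at most 2 counts in any library. The summed CPM of the 10 B cell markers was 38.2 to 42.03 in control and 43.5 to 48.5 with DB2313, mostly from Ighm.

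To ask whether DB2313 changed the class II genes, the groups were compared gene by gene in edgeR (quasi-likelihood), and p-values were adjusted over all tested genes by the Benjamini-Hochberg method. All 10 genes passed the filter on low counts in every fit that is described here, and none of them was called at an adjusted p under 0.05, against 10.6% of all tested genes. The lowest adjusted p-values were those of H2-DMa (0.0510) and H2-Eb1 (0.0633). At an unadjusted p under 0.05 there were 5 genes, H2-Eb1, H2-DMa, H2-DMb2 and Ciita on the lower side and H2-Ob on the higher side, where 23.3% of all tested genes had such a p. The median log2 fold change (DB2313 against control) was -0.10 over the 10 genes and 8.2e-04 over all tested genes, and 8 of the 10 values lay below 0. With library totals or DESeq2 size factors in place of TMM scaling it was 7 of 10, since H2-Oa, at -0.0031, turned to 0.019 and 7.3e-04. The 95% interval of the change lay within 1.5-fold in both directions for 9 of the 10 genes, H2-Ob being the exception.

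**Figure D1:**
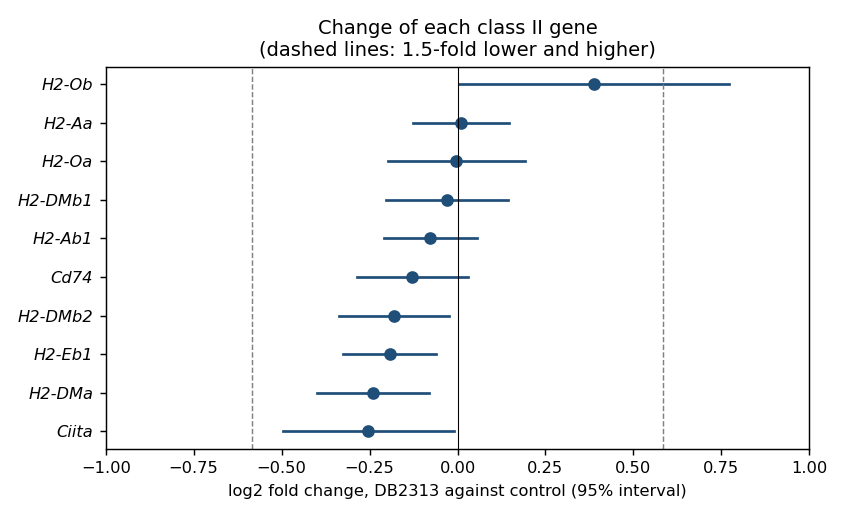
Log2 fold change (DB2313 against control, horizontal axis) of the 10 class II genes with its 95% interval from the edgeR fit, 3 libraries per group, sorted by size. Dashed lines mark 1.5-fold, and the interval of H2-Ob, which reached 1.71-fold, is the one that crosses such a line.

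The result lay close to the threshold for some genes. H2-DMa was called in 7 of 17 alternative fits and H2-Eb1 in 5 of 17, always lower with DB2313. With an offset for gene length, 4 class II genes were called lower (H2-Eb1, H2-DMa, H2-DMb2 and Cd74), where the share called over all genes was 12.9%. DESeq2 called 2, H2-Eb1 and H2-DMa, with adjusted p-values of 0.0323 and 0.0360, and 11.6% of all genes. Without DB2313 replicate 1, 3 genes were called lower, H2-Eb1 (adjusted p 0.03003), H2-DMa (0.00509) and Cd74 (0.0467, edgeR), with 11.8% of all genes called. Without DB2313 replicate 3, H2-Eb1 (0.0480) and Ciita (0.00590, edgeR) were called lower, with 16.6% of all genes called. No class II gene was called higher in any of the 17 alternatives.

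Ciita, the coactivator, lies on chromosome 16 (10480059 to 10528418, plus strand). It had 173, 179 and 155 CPM in control replicates 1 to 3 and 111, 148 and 166 CPM in DB2313 replicates 1 to 3. DB2313 replicate 1 was the lowest library by far and DB2313 replicate 3 lay inside the control range, so the groups overlapped. The means were 169 ± 12.5 and 142 ± 27.9 CPM (SD, n = 3 each), with a log2 fold change of -0.25 ± 0.11 (SE; 95% interval -0.50 to -0.011) and an edgeR adjusted p of 0.191. This value rested on 1 library: it was -0.11 without DB2313 replicate 1 and -0.38 without DB2313 replicate 3. GENCODE M21 lists 6 protein-coding transcripts of Ciita with 6 starts, and the gene counts do not tell them apart. Dexi, on the opposite strand, overlaps Ciita (856 to 1328 counts), and without strand information reads in the shared part could belong to either.

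The genes of the peptide-binding pairs were among the most abundant transcripts of these cells. H2-Aa (chromosome 17, 34282744 to 34287827, minus strand), the A alpha chain, had 1806, 1781 and 1783 CPM in control and 1882, 1815 and 1712 CPM with DB2313. Its DB2313 libraries lay on both sides of the control libraries. The log2 fold change was 0.010 ± 0.064 (SE; -0.13 to 0.15), with an edgeR adjusted p of 0.949.

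H2-Ab1 (34263209 to 34269418, plus strand), the A beta chain, had 1313, 1292 and 1325 CPM in control and 1278, 1239 and 1207 CPM with DB2313. Every DB2313 library lay below every control library, by a narrow margin. Its log2 fold change was -0.078 ± 0.062 (SE; -0.21 to 0.055), with an edgeR adjusted p of 0.507.

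H2-Eb1 (34305877 to 34316199, plus strand), the E beta chain, had 1639.8, 1627 and 1597 CPM in control and 1472, 1408 and 1373 CPM with DB2313. The groups were well apart, with means of 1621 ± 22.0 and 1418 ± 50.6 CPM (SD, n = 3 each). The log2 fold change of H2-Eb1 was -0.19 ± 0.063 (SE; -0.33 to -0.060), a level 0.875 times that of control, with an edgeR adjusted p of 0.0633. The E alpha gene that would pair with it, listed as H2-Ea-ps, had 0 to 4 counts per library and was not tested.

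Cd74 was the most abundant gene of the set. It lies on chromosome 18 (60803848 to 60812646, plus strand), away from the class II region. It had 6466, 6641 and 6565 CPM in control and 6608, 5997 and 5392 CPM with DB2313. DB2313 replicate 1 sat within the control range and the others below it. The log2 fold change was -0.13 ± 0.074 (SE; -0.29 to 0.029), with an edgeR adjusted p of 0.326. The value was -0.20 without DB2313 replicate 1 and -0.056 without DB2313 replicate 3.

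H2-DM, the peptide exchanger, is encoded by 3 of the genes. H2-DMa (34135182 to 34139101, plus strand), its alpha chain, had 232, 239.8 and 240.0 CPM in control and 219, 199 and 184 CPM with DB2313. The highest DB2313 library was under the lowest control library, and the means were 237 ± 4.501 and 201 ± 17.7 CPM (SD, n = 3 each). The log2 fold change of H2-DMa was -0.24 ± 0.074 (SE; -0.40 to -0.08), with an edgeR adjusted p of 0.0510. A GENCODE M21 transcript of H2-DMa shares 325 bp at 99.1% identity with Brd2, a listed gene of the region. The deposited coordinates of H2-DMa and Brd2 do not overlap, and whether that stretch was counted was not checked.

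H2-DMb2 (34143307 to 34151553, plus strand) had 96.0, 104 and 106 CPM in control and 89.3, 90.9 and 88.9 CPM with DB2313. Its groups were apart as well, with a log2 fold change of -0.18 ± 0.073 (SE; -0.34 to -0.025) and an edgeR adjusted p of 0.143. H2-DMb1 (34153072 to 34160230, plus strand), the neighbouring beta chain gene, had 189, 186 and 192 CPM in control and 201, 162 and 193 CPM with DB2313. Its groups overlapped, with DB2313 replicate 2 the lowest and DB2313 replicate 1 the highest of all 6 libraries, and the log2 fold change was -0.030 ± 0.081 (SE; -0.20 to 0.14, edgeR adjusted p 0.877). The transcripts of the 2 beta chain genes share a stretch of 1081 bp at 95.7% identity, so reads could have been divided between them or dropped, and their separate values are uncertain. Summed as 1 gene, a step added after the data were seen, they had a log2 fold change of -0.078 ± 0.072 (SE; -0.23 to 0.075) and an edgeR adjusted p of 0.574.

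The 2 genes of H2-O, the brake on H2-DM, were the least abundant structural genes. H2-Oa (34092340 to 34095234, plus strand) had 48.6, 51.2 and 53.6 CPM in control and 54.2, 53.8 and 45.1 CPM with DB2313. The DB2313 libraries fell on both sides of the control range, and the log2 fold change was -0.0031 ± 0.092 (SE; -0.20 to 0.19, edgeR adjusted p 0.990). BC051537, an antisense gene with 2 to 18 counts per library, covers all of H2-Oa.

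H2-Ob (34238903 to 34245907, plus strand) was the one class II gene whose DB2313 libraries all lay above the control libraries. It had 7.93, 6.84 and 5.33 CPM in control and 8.74, 8.22 and 9.37 CPM with DB2313, from 85 to 164 reads per library. Its log2 fold change was 0.39 ± 0.18 (SE; 0.0046 to 0.77) and the edgeR adjusted p 0.207. The SE was the largest of the set, and the value was 0.25 when control replicate 3 was left out and 0.53 when control replicate 1 was.

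**Figure D2:**
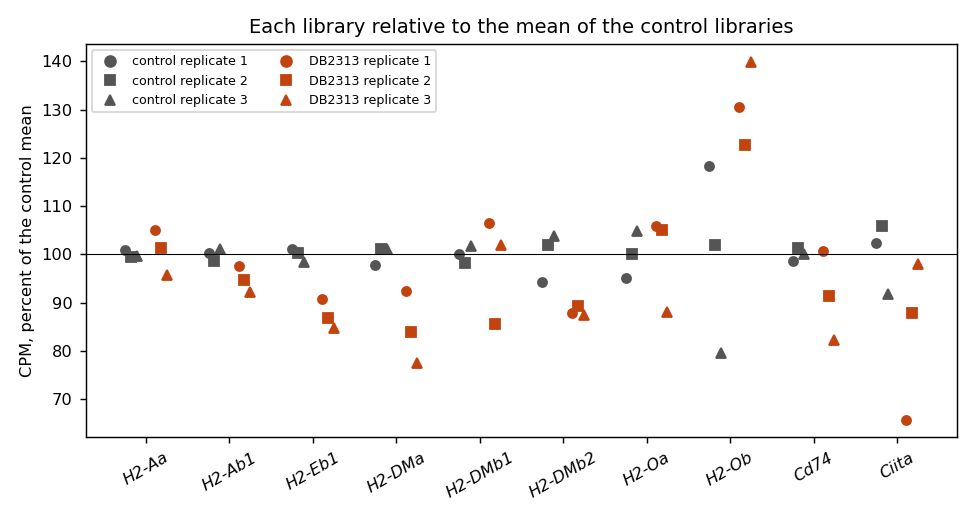
CPM of each class II gene in each library as a percent of the mean of its 3 control libraries (vertical axis). For H2-Ab1, H2-Eb1, H2-DMa and H2-DMb2 the 3 DB2313 points lie under the 3 control points, for H2-Ob they lie above them, and for the other 5 genes the groups overlap.

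The groups thus did not overlap for 5 of the 10 genes, 4 lower and 1 higher, where 27.4% of all tested genes did not overlap. The spread within groups was uneven. The coefficient of variation among control libraries was under 2% for 6 of the 10 genes (0.782% for H2-Aa), where the median of all tested genes was 8.40%. These 6 genes ranked 1214 or better by counts in every library. The median was not matched on level, so it does not show that they were unusually steady. With DB2313 it was larger than in control for 8 of the 10 genes, and reached 10.1% for Cd74 and 19.7% for Ciita, against a median of 10.8% over all tested genes. H2-DMb2 and H2-Ob were the exceptions.

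Among the DB2313 libraries, 6 of the 10 genes were highest in replicate 1 and lowest in replicate 3, and Ciita ran the other way. Ciita is the longest gene of the set, at 9535 bp against 1184 to 3153 bp for the rest. Ep300 (14273 bp) also ran upward over DB2313 replicates 1 to 3 (114, 166 and 190 CPM), whereas Irf8 (7055 bp) ran downward (267, 242 and 223 CPM). With the length offset the SE fell from 0.074 to 0.053 for Cd74 and from 0.114 to 0.085 for Ciita. The part of gene length in this order was not tested. The share of all counts that fell on the 10 genes was 1.19%, 1.19% and 1.19% in the control libraries and 1.18%, 1.12% and 1.06% in DB2313 replicates 1 to 3, of which Cd74 alone gave 0.645% to 0.655% in control and 0.655%, 0.605% and 0.550% with DB2313. Marker sums were ordered in different ways among the DB2313 libraries. The 9 maturation markers, of which 2 were called lower, summed to 7441 to 8149 CPM in control and to 7515, 6763 and 5881 CPM, and the neutrophil markers to 5896, 4903 and 4487 CPM, in DB2313 replicates 1 to 3. The dendritic cell markers ran the opposite way, at 309.8, 322 and 353 CPM. The macrophage markers, mostly Lyz2, summed to 9124, 8909.5 and 9789 CPM. The part of these marker genes in the class II values was not tested. In bulk samples, fewer cells of a type and less RNA per cell cannot be told apart.

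To compare levels between genes, CPM were divided by the deposited gene length in kilobases. On this scale the order in control was Cd74 (4651 ± 62.2 CPM per kb, SD, n = 3), H2-Eb1 (1369 ± 18.6), H2-Aa (955 ± 7.47) and H2-Ab1 (800.1 ± 10.4). The group of H2-DM and H2-O followed, with H2-DMa at 145 ± 2.74, H2-DMb1 at 127 ± 2.22, H2-DMb2 at 59.5 ± 2.95 and H2-Oa at 38.9 ± 1.88 CPM per kb. Ciita came next at 17.7 ± 1.31 and H2-Ob last at 2.12 ± 0.414 CPM per kb. Neighbours in this order did not overlap in the control libraries. With DB2313 the order of the means was the same except that H2-DMa (122 ± 10.8) and H2-DMb1 (125 ± 13.97) overlapped and changed places. The step from H2-Ab1, the lowest of the peptide-binding chains, to H2-DMa was 5.53-fold in control and 6.20-fold with DB2313. By counts, Cd74 ranked between 6 and 8 among all genes in every library.

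**Figure D3:**
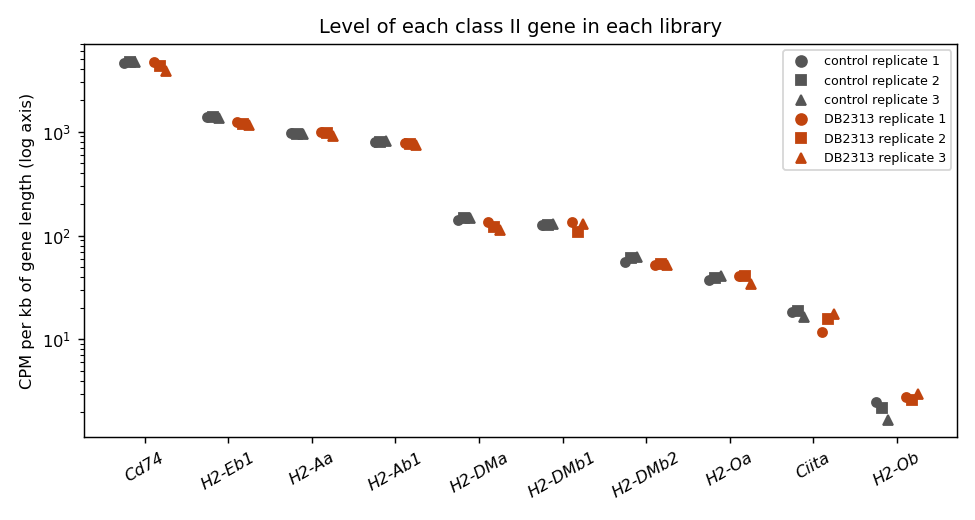
CPM per kb of gene length (log axis) of each class II gene in each library, ordered by the control mean. Cd74 stands at the top at 3824 to 4710 CPM per kb, and H2-Ob at the foot at 1.69 to 2.97 CPM per kb, with small differences between the groups at each gene.

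Ratios between partner genes were then compared within each library, since they do not depend on how libraries are scaled. There were 8 ratios, each tested by exact permutation (two-sided), for which 0.1 is the smallest p that 3 libraries per group allow. The ratio of H2-Eb1 to H2-Ab1 (per length) was 1.73, 1.74 and 1.67 in control and 1.59, 1.57 and 1.57 with DB2313. The ratio of H2-Ab1 to H2-Aa was 0.832, 0.830 and 0.851 in control and 0.777, 0.782 and 0.807 with DB2313. For the ratio of H2-DMa to H2-Oa, the exchanger to its brake, the values were 3.82, 3.75 and 3.59 in control and 3.24, 2.96 and 3.27 with DB2313. The groups did not overlap for these 3 ratios, each lower with DB2313 at the smallest exact p of 0.1 (0.267 adjusted over the 8). The other 5 ratios overlapped, among them Cd74 to H2-Ab1 (5.81 ± 0.136 and 5.60 ± 0.409, SD, n = 3 each) and H2-Ob to H2-Oa (0.0550 ± 0.0133 and 0.0726 ± 0.0123), with exact p-values from 0.2 to 0.6.

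Genes of the class II pathway outside the set were compared from fixed lists. Of 17 transcription factors and cofactors of class II promoters, 4 rose and 2 fell, against 4.66% of all tested genes called higher and 5.94% called lower, and the median log2 fold change of the list was -0.040. Only 1 was called higher when any control library or DB2313 replicate 2 was left out, and 1 lower without control replicate 1, control replicate 3 or DB2313 replicate 2. Rfxank, a subunit of the X box factor RFX, rose from 10.4, 11.1 and 13.1 CPM to 20.3, 20.01 and 18.9 CPM, a log2 fold change of 0.78 ± 0.13 (SE; edgeR adjusted p 0.00103). Its partners Rfx5 (-0.045 ± 0.10) and Rfxap (0.097 ± 0.15) were not called (edgeR adjusted p 0.849 and 0.759). Among the NF-Y subunits that read the Y box, Nfya fell from 128 ± 2.27 to 104 ± 1.46 CPM (SD, n = 3 each; -0.30 ± 0.069, adjusted p 0.0115), Nfyb rose from 27.6 ± 0.539 to 36.2 ± 3.96 CPM (0.39 ± 0.10, 0.0215), and Nfyc (-0.040 ± 0.098, 0.860) was not called by edgeR.

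Irf4, a factor of dendritic cells, fell from 152 ± 11.6 to 113 ± 2.19 CPM (-0.43 ± 0.075 SE, edgeR adjusted p 0.00180). Usf1 rose from 109 ± 2.00 to 135 ± 9.38 CPM (0.31 ± 0.074, 0.0143; SD, n = 3 each). Spi1 itself (366 ± 18.4 and 329 ± 20.1 CPM, -0.15 ± 0.071, 0.206) and Irf8 (273 ± 10.7 and 244 ± 21.8 CPM, -0.16 ± 0.076, 0.207) were not called in edgeR, and the groups overlapped for both.

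Calls among the proteases and helpers that cut the invariant chain and prepare antigen went both ways, though the list leaned lower. Of 11 genes, 2 rose and 3 fell, against 4.66% of all tested genes called higher and 5.94% called lower. The median log2 fold change was -0.18, with 3 of the 11 values above 0. Summed CPM was 10282 to 10743 in control and 8772 to 9783.5 with DB2313. Only 1 gene was called higher without any one control library or without DB2313 replicate 2. Lgmn, asparagine endopeptidase, fell from 304, 305 and 321 CPM to 118, 103 and 102 CPM, a log2 fold change of -1.52 ± 0.076 (SE; edgeR adjusted p 1.6e-08). Ctss, which makes the late cuts in the invariant chain of dendritic cells, fell from 1274 ± 62.9 to 1068 ± 26.8 CPM (-0.25 ± 0.065 SE, 0.0205), and Cst3, an inhibitor of cysteine proteases, fell from 2525 ± 21.6 to 1862 ± 258 CPM (-0.44 ± 0.085 SE, 0.00342). Ctsl rose from 156 ± 12.7 to 203 ± 7.77 CPM (0.38 ± 0.076 SE, 0.00438), and Ifi30, the thiol reductase of antigen processing, from 195 ± 10.9 to 236 ± 21.6 CPM (0.27 ± 0.079 SE, edgeR adjusted p 0.0372; SD, n = 3 each). Ctsd and Ctsb, cathepsins more abundant than Ctsl, had log2 fold changes of 0.0066 and -0.15 and were not called.

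Of 10 genes of class II transport and turnover, none was called by edgeR, and 3 had an unadjusted p under 0.05, where 23.3% of all tested genes did. March1, the ubiquitin ligase that removes class II from the surface, had 45.1 ± 4.14 and 37.1 ± 6.06 CPM (log2 fold change -0.28 ± 0.12 SE, edgeR adjusted p 0.148), and its relative March8 had -0.25 ± 0.079 (0.0614). Cd83, which opposes March1 at the surface, had 567 ± 18.0 and 554 ± 37.8 CPM (-0.032 ± 0.070, 0.841). DESeq2 called 1 gene of this list, higher with DB2313. Of 6 genes for partners of class II and CD74, none was called by edgeR or DESeq2 and none had an unadjusted p under 0.05, among them Mif (0.047 ± 0.12) and Cd44 (0.14 ± 0.066, log2 fold change ± SE).

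Of 21 genes of the interferon-gamma response, a pathway known to raise Ciita, 6 rose and 3 fell, with a median log2 fold change of 0.015. The shares over all tested genes were 4.66% higher and 5.94% lower. Without control replicate 3, 2 were called higher, without DB2313 replicate 2, 3 were called higher and 1 lower, and without control replicate 2, 1 was called lower. The receptor gene Ifngr1 rose (0.38 ± 0.069 SE, edgeR adjusted p 0.00214), as did the immunity-related GTPases Irgm1 (0.62 ± 0.078, 1.2e-04), Irgm2, Igtp and Iigp1 (0.36 to 0.62). Jak2 (-0.26 ± 0.070), Gbp2 (-0.32 ± 0.070) and Gbp5 (-0.39 ± 0.078, log2 fold change ± SE) fell. Irf1 (-0.044 ± 0.074, 0.784) and Nlrc5, the relative of Ciita for class I genes (-0.065 ± 0.089, 0.729), were not called by edgeR.

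**Figure D4:**
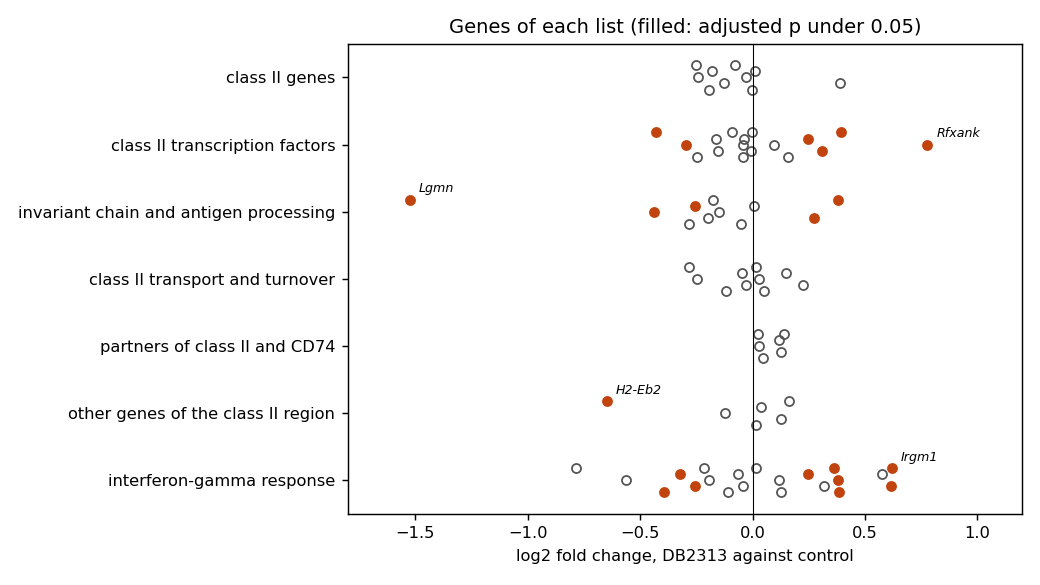
Log2 fold change (horizontal axis) of each tested gene in the class II set and in 6 lists of related genes, 3 libraries per group. Filled points passed an edgeR adjusted p under 0.05: there are none among the class II genes of the set, and Lgmn (-1.52) lies farthest to the left.

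Along chromosome 17, 8 of the 10 class II genes lay with the other listed genes of the region in a stretch of 277154 bp (34092340 to 34369493). Of the 8 other listed genes there, 6 were tested and 1 was called, where 10.6% of all tested genes were called. H2-Eb2 is a class II beta chain gene next to H2-Eb1 and was outside the set of 10. It fell from 31.7, 33.1 and 29.7 CPM to 19.5, 19.8 and 21.03 CPM, a log2 fold change of -0.65 ± 0.099 (SE; -0.86 to -0.44, edgeR adjusted p 6.3e-04). Its interval did not reach that of H2-Eb1 (-0.33 to -0.060), and the difference between both genes was not tested. The class I loading genes that lie between H2-DMb1 and H2-Ob were not called: Psmb9 had a log2 fold change of 0.16 ± 0.076, Tap1 of 0.13 ± 0.063, Psmb8 of 0.017 ± 0.071 and Tap2 of 0.039 ± 0.069 (SE; edgeR adjusted p 0.215 to 0.924). Btnl2 had 1 to 8 counts per library and was not tested.

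**Figure D5:**
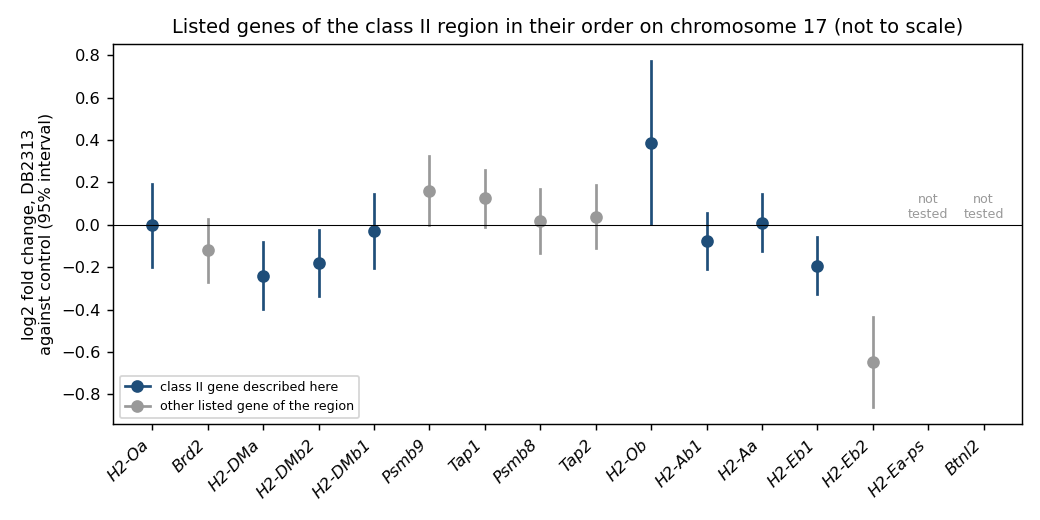
Log2 fold change with 95% interval (vertical axis) of the listed genes of the class II region, in their order on chromosome 17 and not to scale. H2-Eb2, a class II beta chain gene outside the set, is the called gene at -0.65. The class II genes of the set, on both sides of the class I loading genes, lie between -0.24 and 0.39.

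The profile of H2-Ab1 over the 6 libraries was compared with that of every protein-coding gene with a mean log2 CPM of at least 1. The 5 most alike were Ywhah (Pearson r 0.996), Wdr86 (0.994), Bbs10 (0.994), Dcp1b (0.993) and Nipsnap1 (0.992), each over the same 6 libraries, which share treatment groups and scaling. These values were picked as the highest of many over 6 libraries, so they are high by selection and carry no p. Likeness of profile is not likeness of size: the log2 fold change was -0.91 for Wdr86 and -0.078 for H2-Ab1. Bbs10 had 21 to 41 counts per library. Within the class II set, r with H2-Ab1 was 0.964 for H2-DMa, 0.921 for H2-Eb1, 0.893 for Cd74, 0.760 for H2-DMb2, 0.462 for H2-Oa, 0.403 for H2-Aa, 0.296 for H2-DMb1, 0.062 for Ciita and -0.750 for H2-Ob.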

How the data were processed

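RNA was extracted with Trizol and Illumina libraries were made, per the labels. The submitters' processing notes name CASAVA 1.8, HISAT2 2.0.5 and featureCounts 1.5.0-p3, whereas the methods of the study name LifeScope for alignment and counting. The table that the authors deposited holds raw counts for each gene and library, neither normalised nor pooled, with gene lengths. Build, annotation release and strandedness were not given in the sources used here. Start and end were those of GENCODE M21 for 98.3% of the 54409 identifiers found in both, so coordinates are those of the table, as GRCm38; for 3 of the 10 class II genes they were identical.

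Groups came from the treatment label, and columns were matched by name and number. Counts were tested with edgeR 4.0.16 (quasi-likelihood, TMM, filterByExpr, group only) in R 4.3.3, with Benjamini-Hochberg adjustment over all tested genes. The procedure was tested on simulated data with the same dispersion for all genes and with changes larger than those of the class II genes. How well it finds smaller changes was not assessed. SE and 95% intervals come from the edgeR fit. CPM use TMM-scaled library sizes. DESeq2 1.42.0, limma-voom (limma 3.58.1) and other alternatives are given in the closing section. Similar transcripts were searched with blastn 2.17.0 (at least 95% identity over 100 bp, GENCODE M21). The class II genes, the lists and the rule for named genes (all 10 genes, called or most abundant list genes, 5 genes most like H2-Ab1) were chosen with earlier results of these data known. Rfx5, Rfxap, Nfyc, March1, March8, Tap2, Nlrc5 and the absent cell markers fall outside that rule and were named after their values were seen. The scarce maturation markers were also named after their values were seen. Counting intervals do not cover technical duplicates, since reads carried no molecular identifiers. No batch or date was given. Values of some listed genes are not reported here, though they count in the list totals.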

Additional observations from a re-analysis of the deposited data

How the results depend on the processing

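H2-Ab1, H2-Eb1, H2-DMa, H2-DMb2, H2-Ob, Cd74 and Ciita kept their direction in all 17 alternatives. H2-Aa turned to -0.034 with the length offset and -0.034 with the length offset and block, and ranged from -0.020 to 0.047 over the fits that left out 1 library. H2-Oa turned to 7.3e-04 with DESeq2 size factors, 0.019 with library totals, 0.0069 with no filter and 7.3e-04 with DESeq2, and ranged from -0.045 to 0.079 without 1 library. H2-DMb1 ranged from -0.092 to 0.061, above 0 without DB2313 replicate 2. None of these 3 genes was called in any alternative.

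Calls were gained, and the cause was not tested. H2-Eb1 was called with DESeq2 (-0.19), the length offset (-0.27) and the length offset with block (-0.27), and ranged from -0.22 to -0.17 without 1 library. H2-DMa was called with protein-coding genes only (-0.24), limma-voom (-0.24), DESeq2 (-0.24), robust edgeR (-0.24), the length offset (-0.29) and the length offset with block (-0.29), and ranged from -0.31 to -0.18. H2-DMb2 (-0.23) and Cd74 (-0.19) were called with the length offset and Ciita (-0.24) with no filter. Without 1 library Cd74 ranged from -0.20 to -0.056 and Ciita from -0.38 to -0.11. The number of class II genes called lower was 1 with no filter, protein-coding genes only, limma-voom and robust edgeR, 2 with DESeq2 and 2 with the length offset and block, 4 with the length offset, and 0 to 3 without 1 library. In the same fits the share of all genes called was 6.29%, 12.5%, 10.6%, 11.02%, 11.6%, 10.4% and 12.9% in that order, and 5.07% to 16.6% without 1 library, so that counts of 1 or 2 of 10 lie near the background.

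In the antigen processing list the number called higher was 1 with protein-coding genes only, the block, and the block with length offset, and 1 to 2 without 1 library, and the number called lower was 5 with the length offset. The fit to protein-coding genes only left out Ifi30, which was annotated as a processed transcript, so that it could not be called there. In the transport list 1 gene was called higher with library totals, DESeq2, the length offset, and the block with length offset, with 0 to 1 higher and 0 to 2 lower without 1 library. In the interferon-gamma list 6 were called lower with the length offset, with 2 to 7 higher and 1 to 4 lower without 1 library. For the transcription factors these ranges were 1 to 4 higher and 1 to 3 lower, and for the other genes of the region 0 to 1 higher. Over all tested genes, 328 to 1097 were higher and 411 to 1311 lower without 1 library, with both minima in the fit that left out DB2313 replicate 2 and both maxima in the fit that left out DB2313 replicate 3.

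No pairing by replicate number was seen: deviations of same-numbered libraries from their group means correlated at 0.0035, -0.024 and -0.12. Under the replicate block no class II gene was called, and 7.98% of all tested genes were. H2-DMb1 and H2-DMb2 were summed after the data were seen (-0.078). H2-Ob rested on 85 to 164 counts per library, the thinnest data of the set.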
